A study of Oryctolagus cuniculus with 6 samples.

Results

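The nuclear genes of the mitochondrial respiratory chain were followed in smooth muscle cells of the rabbit basilar artery after both common carotid arteries had been tied. Their probes were taken from the array files by gene name or by a description naming a subunit of complexes I to V. The muscle-type subunits COX7A1 and COX6A2 and the genes of the mitochondrial genome were left out. This gave 150 of 43603 probes, which name 45 of 10003 genes, and 145 of these probes, of 44 genes, were bright enough to be tested. COX7B2, a form of cytochrome c oxidase subunit 7B, was the exception, with none of its 5 probes well above background on 3 or more arrays. The 44 tested genes comprise 37 subunits (18 of complex I, 2 of complex II, 4 of complex III, 4 of complex IV and 9 of complex V) and 7 assembly factors whose descriptions name a complex.

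All rabbits were female New Zealand White, and all were killed on day 5 after surgery. In the ligated group (3 arrays) both common carotid arteries were tied, which raises flow through the basilar artery. In the sham group (3 arrays) the same vessels were exposed without being tied. Cells were freed from the whole artery with elastase and collagenase, and RNA from each preparation was read on a single-colour array of probes 60 bases long. The labels do not state whether each array held 1 animal, so p-values measure the spread between these samples.

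Complex I takes electrons from NADH and complex II from succinate, and both pass them to ubiquinone. Complex III hands them to cytochrome c, complex IV passes them to oxygen, and complex V, the ATP synthase, uses the proton gradient that complexes I, III and IV build to make ATP. Complexes I, III, IV and V combine subunits of nuclear and mitochondrial genes, while complex II is encoded by nuclear genes alone. Contractile smooth muscle draws much of its ATP from this chain and is also known for a high rate of glycolysis.

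A level is the log2 processed signal of a probe minus the 75th percentile of its array, so 0 is the signal at that percentile, and a change is the ligated mean minus the sham mean. Each gene is read on its brightest tested probe. Between 58.7% and 63.7% of probes were well above background on an array, no spot was saturated, and the number of arrays limits the precision. The sham arrays shared slide 1 and the ligated arrays slide 2, and the effects of slide and surgery cannot be told apart. Sham 3 was scanned on another day than the rest. Sham 2 and sham 3 lay closer to each other over the 44 genes (SD of the difference 0.12) than any other pair of arrays (0.23 to 0.42). A shift shared by all 44 genes does not enter this measure, so it cannot show a common fall or rise. In what is left the arrays did not sort by surgery. Sham 1 lay closer to ligated 2 (0.24) than to sham 2 (0.36) or sham 3 (0.33), and ligated 3 lay closer to sham 2 (0.28) and sham 3 (0.30) than to ligated 1 (0.37) or ligated 2 (0.34). Without sham 2 or sham 3, or with both averaged into 1 sample, 0 of the 44 genes passed the test (6 to 8 had an unadjusted limma p under 0.05). In these fits 0.255% to 0.292% of all tested probes were called lower.

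Relative to the 75th percentile of each array, the respiratory chain genes read lower in ligated arteries in almost every case, by a small amount. The change was below 0 in 41 of 44 genes, against 49.6% of the 7555 tested genes with a name, and its median was -0.41 against 0.01. In 27 of the 44 every ligated array read below every sham array, against 17.7% of all named genes, and in 0 did every ligated array read above every sham array, against 17.9%. After adjustment over all 27410 tested probes (limma, Benjamini-Hochberg), 2 genes had fallen, both of complex V, and 0 had risen. Of all named genes 2.69% had fallen and 6.22% had risen. Before adjustment 17 genes had a p under 0.05, all with a change below 0. Over the probes of these genes 8 of 145 had fallen and 0 had risen, against 2.65% and 5.71% of all tested probes, and 133 of 145 had a change below 0, against 49.5%. The 44 genes share the same 6 arrays and are not replicates of each other. The spike-in control probes, which read RNA added to the samples, moved in the same direction on this scale. Their changes ran from -1.05 to 0.20 with a median of -0.81, 7 of the 10 were below 0, and in 3 the ligated arrays lay wholly below the sham arrays. The controls with changes of 0.20 and 0.10 were very dim. They read between -6.64 and -5.53 on all 6 arrays, below the lowest mean level of a tested named gene (-4.98). Set against the spike-in median, the 44 genes would stand higher by a median of 0.40 and all named genes by 0.81. The direction given here is therefore relative to the other genes of an array. The part of the spike-in difference in these results was not tested.

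**Figure D1:**
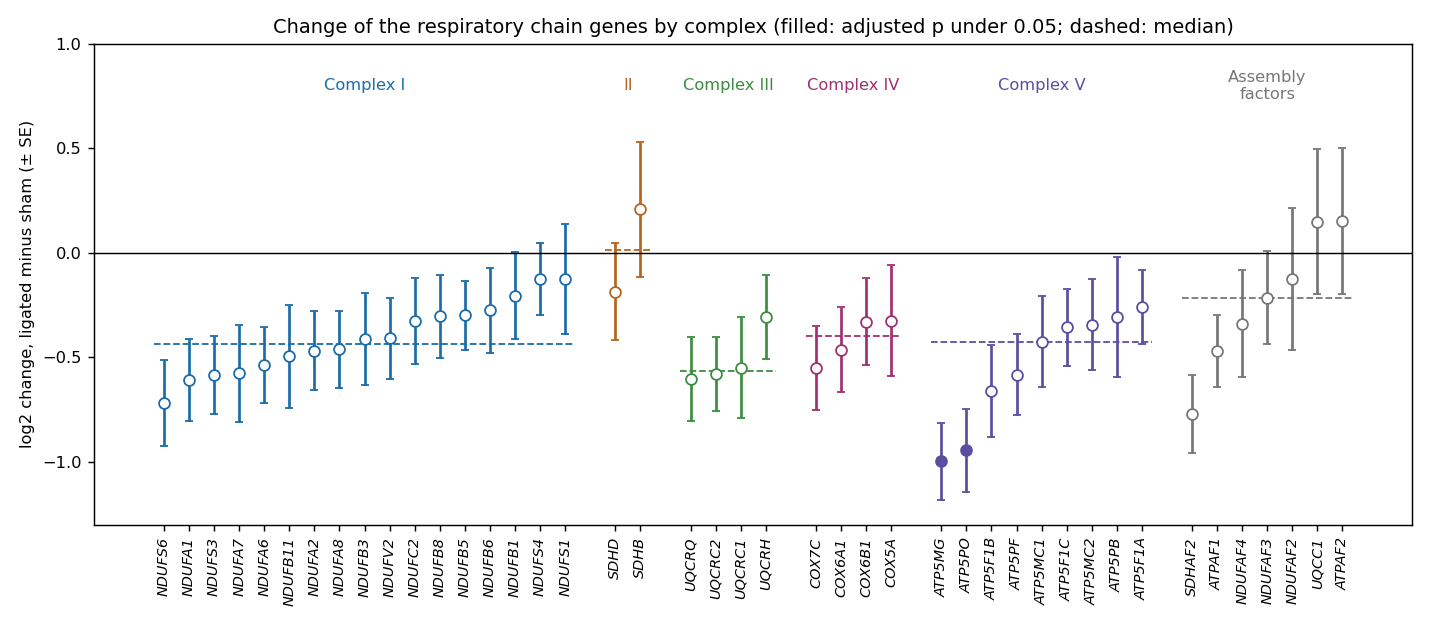
Log2 change (ligated minus sham, with the standard error of the fit, n = 3 arrays a group) of the tested genes, ordered within each complex, with 1 complex I gene not drawn. Filled points have an adjusted p under 0.05, dashed lines are the medians over all tested genes of a complex, and 3 points (SDHB, UQCC1 and ATPAF2) lie above 0.

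Complex V held both genes that passed. ATP5MG encodes subunit g, a small membrane subunit of the Fo part of the ATP synthase that helps its dimers form. Its level was 7.53, 7.49 and 7.69 in sham and 6.44, 6.77 and 6.52 in ligated arteries. The groups lay well apart, and the change was -1.0 ± 0.19 (SE, n = 3 against 3; 2.0-fold lower; limma adjusted p = 0.026). ATP5PO encodes the oligomycin sensitivity conferral protein, which joins the stalk to the catalytic head. It read 6.13, 6.40 and 6.49 in sham and 5.20, 5.43 and 5.56 in ligated arteries. Again no ligated array reached the lowest sham array, and the change was -0.94 ± 0.20 (SE, n = 3 against 3; 1.92-fold lower; limma adjusted p = 0.038).

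Both calls depended on which arrays and which scaling entered. Without sham 2, sham 3, ligated 1 or ligated 2 neither gene passed, with adjusted p between 0.0604 and 0.159, without ligated 3 ATP5PO alone passed, and without sham 1 both did. Under quantile normalization ATP5MG changed by -0.58 (adjusted p = 0.134) and ATP5PO by -0.61 (adjusted p = 0.072).

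The probes behind these calls are shown because they are close to copies of each other. All 4 probes of ATP5MG share the 57 bases in capitals, and the 5 probes of ATP5PO designed on its mRNA share the 47 bases in capitals. The last line is a probe that the files also name for ATP5PO, designed on a read from the 3′ end of a cDNA clone, which overlaps none of the others.
ATP5MG: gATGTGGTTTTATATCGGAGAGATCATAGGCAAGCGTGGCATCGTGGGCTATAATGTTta
ATP5PO: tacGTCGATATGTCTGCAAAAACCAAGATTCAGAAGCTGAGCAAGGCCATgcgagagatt
ATP5PO, clone read: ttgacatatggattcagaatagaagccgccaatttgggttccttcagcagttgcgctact
All 4 probes of ATP5MG passed, with changes from -1.0 to -0.92, and 4 of the 5 overlapping probes of ATP5PO passed, with the remaining probe at -0.87 (limma adjusted p = 0.0502). These counts repeat 1 measurement in each gene. The clone-read probe of ATP5PO differed from them: it read -1.3, -0.92 and -0.75 in sham and 0.37, -0.61 and -1.18 in ligated arteries. Its groups overlapped, and its change was 0.52 (limma adjusted p = 0.442). The mean of all 6 ATP5PO probes changed by -0.67 (limma adjusted p = 0.0836). The files give no genome position for these probes.

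The other 7 subunits of complex V did not pass, and all had a change below 0. The catalytic beta subunit ATP5F1B read 5.60, 5.16 and 5.20 in sham and 4.48, 4.92 and 4.59 in ligated arteries. The groups did not overlap, and the change of -0.66 ± 0.22 had a limma adjusted p of 0.116. The alpha subunit ATP5F1A, its partner in the head, had the smallest change of the complex, -0.26 ± 0.18 (limma adjusted p = 0.380), and under quantile normalization it was 0.12. The gamma subunit ATP5F1C, which turns inside the head, changed by -0.36. Coupling factor 6, ATP5PF, a part of the stalk, changed by -0.58, from levels that spanned 5.47 to 5.49 in sham to levels between 4.63 and 5.07. The ligated arrays of 8 of the 9 subunits lay wholly below the sham arrays, the exception being ATP5PB, the stalk subunit b, at -0.31.

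The ring of subunit c is made from several nuclear genes that encode the same mature protein, and probes of 2 of them share a run of 20 bases, in capitals here.
ATP5MC1: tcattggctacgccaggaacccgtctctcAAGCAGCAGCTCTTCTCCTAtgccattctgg
ATP5MC2: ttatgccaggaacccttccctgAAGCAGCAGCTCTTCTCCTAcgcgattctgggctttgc
On oryCun2, the build of the files, the first probe lies at chr19:38526593-38526936 and the second at chr4:37463488-37466299. Both spans are wider than the probe. ATP5MC1 changed by -0.42 ± 0.22 and ATP5MC2 by -0.34 ± 0.22 (SE, n = 3 against 3), and neither passed (limma adjusted p = 0.259 and 0.349). How far each probe also reads the other transcript was not tested.

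In complex I, 0 of 18 subunits passed (8 had an unadjusted limma p under 0.05), all 18 had a change below 0, and 12 had groups that did not overlap. The median change was -0.44. Over all named genes 49.6% had a change below 0, 17.7% had ligated arrays wholly below the sham arrays, and 2.69% had fallen. These shares stand beside the counts of each complex. The core subunits carry electrons from NADH towards ubiquinone. Of these, NDUFS3 changed by -0.58 and NDUFV2 by -0.41. NDUFS1, the largest iron-sulfur subunit, read 3.33, 2.61 and 2.73 in sham and 2.67, 3.05 and 2.59 in ligated arteries. Sham 1 stood above the other 2 sham arrays, the groups overlapped, and the change was -0.12 ± 0.26 (95% interval -0.75 to 0.50). Without sham 1 it was 0.10.

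Among the 14 accessory subunits, which surround the core and are needed to assemble it, the largest change was that of NDUFS6, a zinc-binding subunit. It read 5.87, 5.92 and 5.80 in sham and 4.90, 5.09 and 5.46 in ligated arteries. The groups did not overlap, and the change was -0.72 ± 0.21 (1.65-fold lower; limma adjusted p = 0.083). Its probe lies at chr19:45663066-45663124 on oryCun2. NDUFA1, a membrane-arm subunit of an X-linked gene, followed at -0.61 ± 0.20 (limma adjusted p = 0.109) and agreed over its 5 probes, from -0.61 to -0.53. The smallest change was that of NDUFS4, -0.12 ± 0.17 (95% interval -0.54 to 0.29), whose loss is a known cause of complex I deficiency.

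Complex II had 0 genes past the test (also 0 at an unadjusted limma p under 0.05) and no common direction. SDHB, the iron-sulfur subunit, read 2.40, 1.72 and 2.03 in sham and 2.77, 2.29 and 1.73 in ligated arteries. The groups overlapped, the change was 0.21 ± 0.32 (95% interval -0.56 to 0.98), and all 5 of its probes had a change above 0. SDHB was the single subunit of the 37 with a change above 0, and without ligated 1 its change was -0.04. SDHD, a membrane anchor, changed by -0.19 ± 0.23 (95% interval -0.74 to 0.37), and by -0.30 to -0.01 with 1 array left out. The flavoprotein subunit SDHA and the other anchor SDHC were not analysed here. Both intervals include the median of all 37 subunits (-0.42), and a difference between complex II and the rest was not tested.

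Complex III had 4 subunits, with 0 past the test (2 at an unadjusted limma p under 0.05), all with a change below 0, and groups that did not overlap in 3. Its median of -0.57 was the lowest of the complexes. UQCRQ, a small subunit next to cytochrome b, read 7.31, 7.53 and 7.52 in sham and 6.63, 6.83 and 7.10 in ligated arteries. The groups did not overlap and the change was -0.60 ± 0.20 (limma adjusted p = 0.116). The core proteins UQCRC1 and UQCRC2 changed by -0.55 ± 0.24 and -0.58 ± 0.18 (limma adjusted p = 0.201 and 0.0961). The hinge protein UQCRH, which touches cytochrome c1, had the smallest change, -0.31 ± 0.20, with overlapping groups, and under quantile normalization it was 0.04.

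Complex IV had 4 subunits, with 0 past the test (1 at an unadjusted limma p under 0.05), all with a change below 0, and groups that did not overlap in 2. COX7C read 5.75, 5.53 and 5.56 in sham and 4.84, 5.32 and 5.03 in ligated arteries, a change of -0.55 ± 0.20 (limma adjusted p = 0.141). COX6A1, the form of subunit 6A found outside striated muscle, changed by -0.46 ± 0.20 (limma adjusted p = 0.200). COX6B1, which joins the monomers of the oxidase, changed by -0.33. COX5A, which binds a thyroid hormone metabolite, changed by -0.32 ± 0.26, and its other 4 probes had changes from -0.11 to -0.01. All 5 probes of COX5A were designed on 1 expressed sequence tag. Of the muscle forms left out, COX7A1 fell by 2.58 and COX6A2 by 2.03 on the log2 scale (limma adjusted p = 0.0029 and 0.0044). COX6A1 and COX6A2 are alternative forms of 1 subunit, and the test of the difference between their changes was not made.

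The 7 assembly factors, which build the complexes and are not part of them, had a median change of -0.21, and 0 passed (2 at an unadjusted limma p under 0.05). In 2 of the 7 every ligated array read below every sham array, against 17.7% of all named genes. SDHAF2, which attaches the flavin to SDHA, read 1.8, 1.5 and 1.59 in sham and 0.76, 1.02 and 0.81 in ligated arteries. The groups did not overlap, and its change of -0.77 ± 0.19 came close to the threshold (limma adjusted p = 0.055). It passed in 4 alternatives, among them the filter that requires a probe to be well above background on all 6 arrays (adjusted p = 0.0454). ATPAF2, a chaperone of the alpha subunit of the ATP synthase, had the largest change above 0 of the 7, 0.15 ± 0.35 (95% interval -0.68 to 0.99), with sham 1 at 2.02 and the other sham arrays at 0.99 and 1.05. UQCC1, which assembles complex III, changed by 0.15 as well.

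The lower level was shared by all 3 ligated arrays but was not even. Measured as the median over the 37 subunits of the level minus the sham mean of the gene, the sham arrays stood at 0.01, -0.02 and 0.01. Ligated 1 stood at -0.69, ligated 2 at -0.21 and ligated 3 at -0.38. Ligated 1 was the lowest of the 6 arrays in 36 of the 44 genes. Ligated 2 was the highest ligated array in 30. The SD over 3 arrays was larger in the ligated than in the sham group in 37 of 44 genes (84.1%), against 60.8% of all named genes. Without ligated 1 the median change of the subunits was -0.29 in place of -0.42, 42 of the 44 genes were below 0, and in 27 the groups did not overlap, against 20.9% of all named genes on the same 5 arrays. The order of the ligated arrays was the same in complexes I, III and V. In complex IV ligated 2 and ligated 3 stood at -0.28 and -0.27, and in complex II ligated 3 was the lowest.

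**Figure D2:**
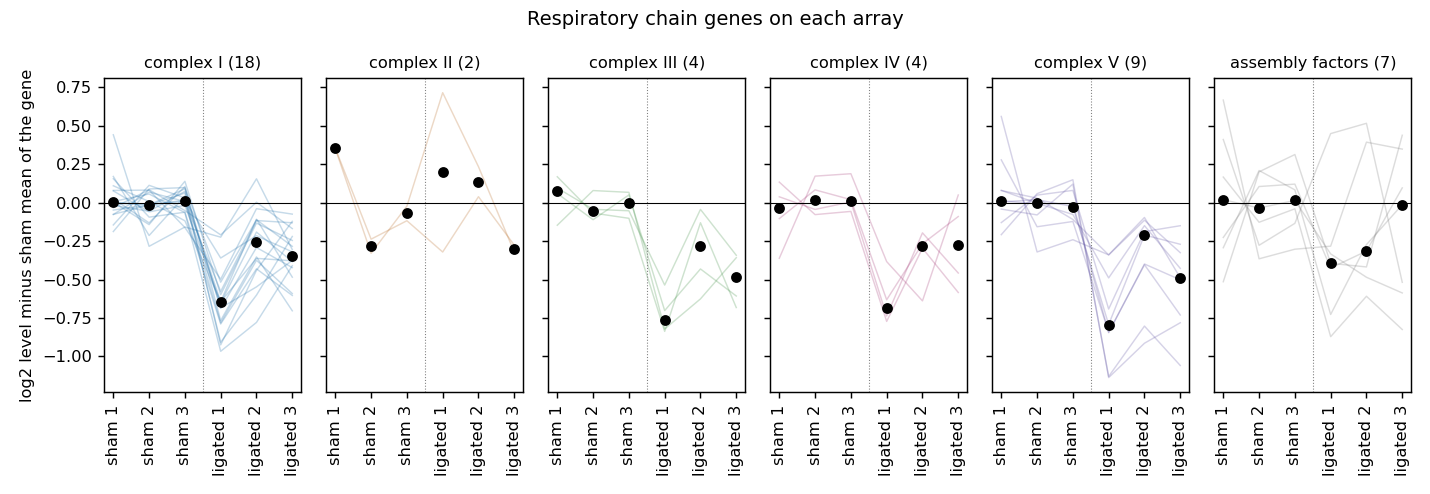
Level of each tested gene on each of the 6 arrays minus the gene's sham mean (log2), 1 thin line per gene, with black points for the median of each complex and the number of genes in brackets. Ligated 1 is the lowest array in complexes I, III, IV and V, and complex II shows no common shift.

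These genes are brightly read, and bright genes as a whole read lower on the ligated arrays. When the named genes were divided into 4 groups of like size by their mean level, the median change went from 0.26 in the dimmest group to -0.18 in the brightest, and the share with every ligated array below every sham array went from 8.47% to 28.2%. The brightest group held 38 of the 44 respiratory chain genes. Those 38 had a median change of -0.42, 36 were below 0, against 63.9% of the group, and in 25 the groups did not overlap. Quantile normalization, which forces the arrays to 1 distribution, brought the median of the brightest group to -0.05 and that of the 38 genes to -0.18. The groups then did not overlap in 10 of the 38, against 20.01% of that group, and in 12 of all 44, against 18.2% of all named genes. The deposited value table gave the same counts, with 18.2% of named genes. Under both of these scalings 0 genes passed (6 had an unadjusted limma p under 0.05), and 6 of 44 had a change above 0. In both, 2.90% of all tested probes were called lower.

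**Figure D3:**
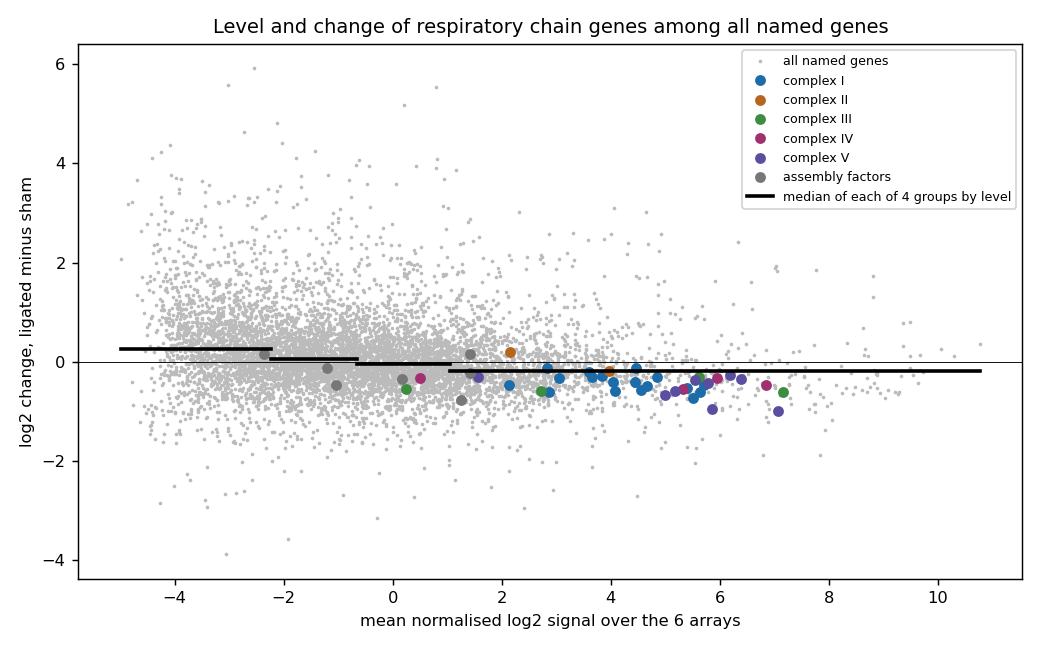
Mean normalised log2 signal over the 6 arrays against the log2 change for all 7555 named genes (grey) and the 44 respiratory chain genes (coloured by complex), with a bar at the median change of each of 4 groups of named genes by level. Most respiratory chain genes lie to the right and below 0, where the bar of the brightest group stands at -0.18.

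The median change of the subunits lay below that of all named genes in each of the other 18 settings and leave-outs drawn here, and the number of genes past the test ranged from 0 to 11. In the setting with 11, 4.96% of all tested probes were called lower, against 2.65% in the main setting. The distance between both medians was smallest under quantile normalization (-0.16) and largest with normexp background correction (-0.65), which also moved the median of all tested probes to 0.21. With 38 spots of high background left out before normexp, the distance was -0.53 and the median of all tested probes 0.08. The setting with 11 genes is this one, while normexp on all spots gave 0.

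**Figure D4:**
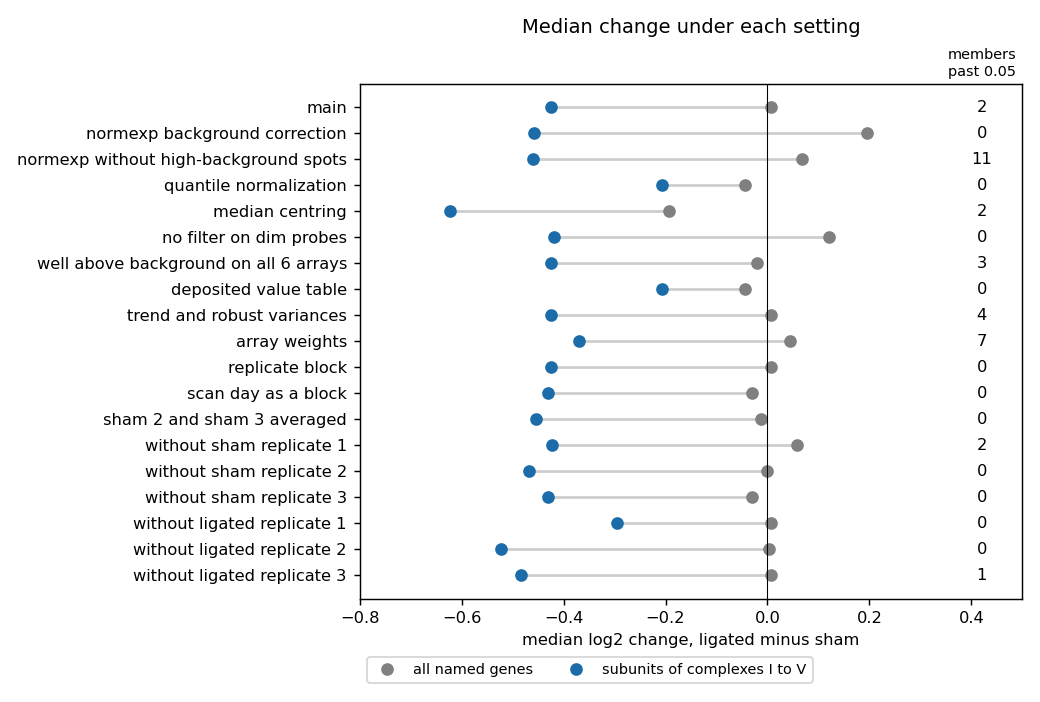
Median log2 change of the 37 subunits (blue) and of all named genes (grey) under each setting, with the number of the 44 respiratory chain genes past an adjusted p of 0.05 at the right. The blue point lies left of the grey point in every line, and the number runs from 0 to 11.

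A further 22 genes of the chain carry neither a qualifying gene name nor a qualifying description and were named through the RefSeq symbol table of assembly mOryCun1.1. Of these, 21 were tested, 19 had a change below 0, and in 15 every ligated array read below every sham array. Over all named genes the shares were 49.6% and 17.7%, and 2.69% had fallen after adjustment. COX5B, a zinc-binding subunit of complex IV, read 6.50, 6.53 and 6.50 in sham and 5.25, 5.76 and 5.72 in ligated arteries. It fell by 0.93 ± 0.21 (SE, n = 3 against 3; 1.91-fold lower; limma adjusted p = 0.043) and was the only one to pass. Its adjusted p was between 0.0561 and 0.156 when any 1 array was left out, and under quantile normalization it was 0.0967 with a change of -0.58. NDUFA4, now counted with complex IV, changed by -0.45 ± 0.19 (limma adjusted p = 0.184). All 5 tested genes of complex V in this group had a change below 0, from -0.67 for ATP5PD, a stalk subunit, to -0.41 for ATP5MK. The hypoxia-induced NDUFA4L2 was not well above background on any array, on a probe designed on a 3′ clone read. The strand of that probe could not be read from the array, so the absence of the mRNA was not tested. NDUFV1, UQCRFS1, COX4I1 and COX4I2 were not analysed here.

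NDUFS5 and COX8A, with changes of 0.29 and 0.28 (limma adjusted p = 0.594 and 0.496), were the 2 further genes above 0. NDUFS5 was dim, with a mean level of -3.42 in sham and -3.13 in ligated arteries. Its other probes had changes from 0.29 to 0.86, and none passed (lowest limma adjusted p = 0.077). The probes of both genes were designed on reads from the 3′ ends of cDNA clones. Such a probe can be the reverse complement of the mRNA strand that the other probes follow, as the UQCRH pair shows, where the 49 bases in capitals of each are the reverse complement of the other's.
UQCRH: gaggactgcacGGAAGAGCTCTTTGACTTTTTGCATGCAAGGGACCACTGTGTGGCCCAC
UQCRH, clone read: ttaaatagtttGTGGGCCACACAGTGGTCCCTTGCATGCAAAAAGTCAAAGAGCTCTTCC
On oryCun2 the first lies at chr13:120230482-120234379 and the second at chr13:120230471-120234368. Of the 17 probes on 3′ clone reads that carry a name of the chain, 2 (of UQCRH and NDUFA2) shared at least 20 bases with a probe of known mRNA, and both were its reverse complement. Their changes were -0.24 and -0.13. For the rest, those of NDUFS5, COX8A, ATP5PO and NDUFA4L2 included, the strand could not be read from the array. Among these, changes were below 0 on the probes of NDUFA1, NDUFB6 and NDUFB11. They were above 0 on those of NDUFS5, COX8A, ATP5PO and NDUFB3. The part of the strand in these changes was not tested. With the further genes added and all probes on 3′ clone reads left out, the same 3 genes passed (ATP5MG, ATP5PO and COX5B). The median change of the subunits in this wider set was -0.46. The -0.42 given above is that of the 37 subunits alone, none of which has such a probe as its brightest. The difference between both medians therefore does not measure the effect of these probes.

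Lists of neighbouring genes were described by the same counts. The shares over all named genes, 2.69% fallen and 6.22% risen, stand beside these lists and the marker lists below. Of 22 tested assembly factors, a list that leaves out the 7 described above, 1 had fallen and 0 had risen, with a median change of -0.14. COA5, an assembly factor of complex IV, was the gene that fell, by 0.94 on the log2 scale (limma adjusted p = 0.037). Of 11 genes of electron carriers and ubiquinone synthesis 0 passed, with a median of -0.46, and of 16 genes of the citric acid cycle and pyruvate dehydrogenase 0 passed, with a median of -0.23. Citrate synthase, CS, changed by 0.07. Of 10 regulators of mitochondrial gene expression 0 passed, with a median of -0.58. TFAM, which packages and transcribes mitochondrial DNA, had a change of -0.95 (limma adjusted p = 0.103), and the coactivator PPARGC1A one of -0.62 (limma adjusted p = 0.385). The change was above 0 in 3 of the 10 and below 0 in 7. The largest in either direction was that of PPARD, 1.11 (limma adjusted p = 0.117). Of 20 genes of import and cristae 1 had fallen and 1 had risen, with a median of -0.28. CHCHD10, a cristae protein, fell by 2.03 on the log2 scale (limma adjusted p = 0.0031), and TOMM6, a part of the import pore, rose by 3.95 (limma adjusted p = 0.019) on a probe designed on a 3′ clone read.

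Markers of the preparation moved with the groups. All 9 tested smooth muscle markers had a change below 0, with a median of -1.11, and SMTN and DES had fallen. Their summed signal, in units of the 75th percentile of the array, was 1313 to 2138 in sham and 487 to 1088 in ligated arteries. Of 5 fibroblast and meningeal markers 3 had risen (LUM, COL15A1 and SLC6A13), and the summed signal was 120 to 135 in sham and 217 to 268 in ligated arteries. Of 4 endothelial, 5 macrophage and 3 erythroid markers 0 passed, and their sums overlapped between the groups. The erythroid sum was 189 to 389 in sham and 28 to 668 in ligated arteries, so the overlap does not mean a like content. On all 3 erythroid markers ligated 1 and ligated 2 read below every sham array, and ligated 3 above every sham array. The 1 tested neuron and glia marker did not pass. KDR, SLC4A1, AQP4 and GFAP were too dim to be tested. The part of these markers in the lower respiratory chain levels was not tested. In RNA of a whole preparation, fewer cells of a type and less RNA per cell cannot be told apart.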

How the data were processed

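RNA of 6 samples was read on single-colour Agilent arrays (3 ligated, 3 sham). The submitters' processing notes name Agilent Feature Extraction 10.7 for the scans. The processed signal is, per the file headers, an intensity, background-subtracted and detrended by the authors' scanner software, with no scaling between arrays. The deposited raw spot and background signals are intensity values as well. The deposited spot flags (well above background, saturated, outlier) are of the kind other, 0 or 1. The authors' deposited table of values is on the log2 scale, with 1 distribution shared by its columns, and its making is not given in the sources here.

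Outlier spots were left out, repeated spots averaged and the 75th percentile of each array subtracted. A probe was tested when well above background on at least 3 of 6 arrays (27410 of 43603). The comparison used limma (3.58.1, R 4.3.3, two-sided, 4 residual degrees of freedom before moderation), and p-values were adjusted by Benjamini-Hochberg over the 27410 probes, with 0.05 as the threshold. The script was tested on simulated data. A sham 3 spot of NDUFB1 was left out as an outlier. Of the 150 probes, 115 had a symbol from the files or the table, and 8 genes were named by hand from their description. The brightest tested probe stands for a gene, and is kept in each alternative that tests it, except where probes are averaged or members redefined. Probe sequences are those of the array files.

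The members, lists and named genes were chosen with earlier results of these data known. Named were all genes past the threshold, the largest change in each direction per complex, a set of core subunits, and up to 3 passing genes of each other list. Other genes were singled out after their values were seen. Alternatives covered background correction, scaling, filter, variance model, blocks, gene summary, membership and each array left out. Single-gene results of some items are not reported here.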

Additional observations from a re-analysis of the deposited data

How the results depend on the processing

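Counts here are genes past an adjusted p of 0.05 among the 44, all lower, against 2 in the main setting, with probes (8 in the main setting) in brackets. They were 0 (0) under normexp, quantile normalization, no filter on dim probes, the deposited value table, scan day as a block and sham 2 and sham 3 averaged, where 0 to 13 genes had an unadjusted limma p under 0.05. Under normexp 0 of all 27410 tested probes passed in either direction. In the other settings of this list 0.255% to 2.90% of all tested probes were called lower. The counts were 11 (35) with normexp without high-background spots, 4 (13) with trend and robust variances and 7 (16) with array weights. More of all tested probes were called lower there as well: 4.96%, 4.08% and 10.04% in that order, against 2.65% in the main setting. The counts were 1 with the mean of all probes of a gene, and 1 (4) by the gene name column alone. With 1 array left out the counts ran from 0 to 2 (0 to 5). The labels do not state whether replicate numbers pair the samples. Correlations of same-numbered arrays were 0.43, -0.57 and 0.58, and so few arrays cannot decide it. A replicate block gave 0 (0), with 5 genes at an unadjusted limma p under 0.05.

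The median change of all subunits was -0.21 under quantile normalization and in the deposited value table and -0.62 with median centring, which moved the median of all probes to -0.19. Under these 3 settings it was -0.21, -0.21 and -0.64 in complex I, -0.31, -0.31 and -0.76 in complex III, and -0.12, -0.12 and -0.60 in complex IV. In complex V it was -0.94 by the gene name column alone, which is the change of ATP5PO, the only gene of the complex that this column names. For assembly factors it was -0.41 with median centring, -0.43 with array weights and -0.41 to -0.11 with 1 array left out.

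The sign turned for 6 named genes, of which none passed in the main setting. ATP5F1A was 0.12 under quantile normalization and 0.13 in the deposited value table, and UQCRH was 0.035 and 0.038. With array weights SDHD was 0.034 and NDUFS1 0.15. ATPAF2 was -0.079 with normexp, -0.045 with median centring and -0.014 with sham 2 and sham 3 averaged. With 1 array left out SDHB ran from -0.044 to 0.48, NDUFS1 from -0.27 to 0.096 and ATPAF2 from -0.029 to 0.49. The cause of these differences was not tested. The 2 alternatives that add genes through the symbol table were chosen after the data were seen, and each gave 3 genes. Precision is limited by 3 arrays a group.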

Other observations

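Over the whole array, the strand of a clone-read probe was checked where it overlapped a probe designed on a named mRNA by at least 20 bases. Of 3757 probes on reads from the 3′ end of a cDNA clone, 46 had such an overlap, and 42 of the 46 (91.3%) were the reverse complement of the mRNA probe. Of 3212 probes on reads from the 5′ end, 22 had such an overlap, and 3 of the 22 (13.6%) were the reverse complement. Genes that the array reads on 3′ clone probes alone, such as NDUFS5, COX8A and TOMM6, were not checked against an mRNA probe.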
